A study of Mus musculus with 6 samples.

Results

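Fatty acid synthesis and desaturation were followed through 10 genes, chosen by name as the core enzymes of the pathway and its transcription factor: Srebf1, Acly, Acss2, Acaca, Fasn, Elovl6, Scd1, Scd2, Elovl5 and Fads1. All 10 were found among the 47561 rows of the deposited gene tables, each as a single row. The RNA came from neutrophils sorted from the bone marrow of male mice of WT genotype, with 3 libraries from mice given chronic unpredictable mild stress (CUMS) and 3 from Control mice. In CUMS a rodent meets one mild stressor after another in an irregular order, here over 4 weeks. The sources used here do not give the age of the mice, the surface markers of the flow sort or the number of animals behind a library. The p-values therefore measure spread among 6 samples that may be partly technical.

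Cells make fatty acids in the cytosol. Acetyl-CoA, made from citrate or from acetate, is carboxylated to malonyl-CoA, and fatty acid synthase joins these units into palmitate. Elongases lengthen the chain and desaturases add double bonds, so that saturated chains become monounsaturated ones and dietary polyunsaturated chains become arachidonate, the parent of the leukotrienes that neutrophils release. Transcription of these enzymes is raised by SREBP-1, the product of Srebf1, while its relative SREBP-2, the product of Srebf2, acts mainly on sterol synthesis genes. Both are held in the endoplasmic reticulum and freed by the same proteases.

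No change in the 10 genes passed the test. Of 10 tested, 0 rose and 0 fell in CUMS at an adjusted p under 0.05 by edgeR's quasi-likelihood test, against 4.50% of all 15778 genes tested (2.36% higher and 2.14% lower in CUMS). Limma-voom also called 0 of the 10, and DESeq2 0 of the 7 to which it gave an adjusted p (it gave none to Fasn, Elovl6 and Fads1). With each tool 1 gene, Acly, had an unadjusted p under 0.05, against 16.9% of all genes tested with edgeR. The log2 fold changes (CUMS over Control) ran from -0.77 to 0.25 with a median of -0.13, and 7 of the 10 were negative, where the median of all genes tested was -0.007 and 51.6% were negative. In the same libraries 14 of 21 genes of the sterol list (synthesis and uptake) fell, with a median of -0.73, and so did Srebf2.

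The estimated counts summed to 85799370 to 109757558 per library in CUMS and 78845457 to 103483602 in Control. A read pair was taken to add about 4 to these values, so a read-pair equivalent here is an estimated count divided by 4. Levels are given as CPM, the count relative to the library's total after scaling the libraries to each other (TMM), with SD over 3 libraries per group. All 10 neutrophil markers were detected in every library, among them Ly6g at 434 ± 55.8 CPM in CUMS and 454 ± 22.7 CPM in Control, and S100a9 at 32900 ± 5700 CPM in CUMS and 38900 ± 4840 CPM in Control. With edgeR 2 of the 10 fell (Ltf and Camp) and 0 rose, with 6 at an unadjusted p under 0.05. Of all genes tested, 2.14% fell, 2.36% rose and 16.9% had an unadjusted p under 0.05. DESeq2 called a fall of Ltf and a rise of Csf3r, and limma-voom all 3. Fewer cells of a type and less RNA per cell cannot be told apart in such bulk samples.

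The transcription factor gene Srebf1 did not differ between the groups beyond their spread. It measured 18.6, 19.2 and 17.1 CPM in CUMS replicates 1 to 3, against 18, 17.7 and 18.6 CPM in Control replicates 1 to 3. The ranges overlap, and the fold change was 1.01 with a 95% interval of 0.893 to 1.14 (adjusted p = 0.96). Srebf1 lies on the minus strand of chromosome 11 at 60199089 to 60222581 (GRCm38). Its alternative first exons give SREBP-1a and SREBP-1c, and the gene-level values do not separate them. Rai1, on the opposite strand, overlaps it, and without strand the reads of the overlap cannot be assigned.

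Acly encodes ATP-citrate lyase, which splits citrate to acetyl-CoA and oxaloacetate in the cytosol, and it was by far the most abundant of the 10. It measured 228, 235 and 235 CPM in CUMS, against 246, 248 and 258 CPM in Control. All 3 CUMS libraries lay below all 3 Control libraries. The groups were apart, in either direction, for 1 of the 10 genes and for 22.9% of all genes tested. The difference was small: a fold change of 0.929 (95% interval 0.874 to 0.986) with an unadjusted p of 0.020 and an adjusted p of 0.18, and the exact permutation p was 0.1, the smallest that 3 against 3 allows. Acly lies on the minus strand of chromosome 11 at 100476353 to 100528000 (GRCm38).

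Acss2 encodes the cytosolic enzyme that makes acetyl-CoA from acetate. It measured 28.1, 29.9 and 29.7 CPM in CUMS, against 26.7, 27.9 and 28.4 CPM in Control. The CUMS mean was the higher one, yet the ranges overlap, and the log2 fold change of 0.08 ± 0.065 (SE) did not pass the test (adjusted p = 0.62). On chromosome 2, plus strand, the gene spans 155517948 to 155585724 (GRCm38), where it overlaps Ggt7 and Gss on the other strand, so part of its count may belong to them.

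The promoter sequence is shown for both genes, which had the highest mean CPM among the 10. Each stretch is the 180 bases just before the RefSeq start (GRCm38.p6), 5′ to 3′ on the gene's strand, at chr11:100528001-100528180 (minus strand) and chr2:155517863-155518042 (plus strand). Capitals mark matches, on either strand, to the motifs GGGCGG (bound by Sp1), CCAAT (bound by NF-Y), CACGTG (an E box) and TCACNCCAC (the core of the sterol regulatory element, the site of SREBPs).
Acly: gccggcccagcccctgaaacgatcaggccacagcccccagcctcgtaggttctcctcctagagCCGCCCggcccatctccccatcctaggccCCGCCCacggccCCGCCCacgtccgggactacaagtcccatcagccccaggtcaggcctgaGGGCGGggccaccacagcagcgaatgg
Acss2: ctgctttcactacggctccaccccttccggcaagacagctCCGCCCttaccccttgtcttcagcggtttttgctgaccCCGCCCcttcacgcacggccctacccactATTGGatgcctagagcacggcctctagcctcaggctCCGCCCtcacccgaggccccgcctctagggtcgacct
The Acly stretch holds 4 Sp1 matches, and the Acss2 stretch 3 Sp1 matches and 1 NF-Y match.

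Acaca encodes acetyl-CoA carboxylase, which makes malonyl-CoA and commits carbon to fatty acids. It measured 5.19, 5.29 and 5.87 CPM in CUMS, against 6.76, 5.08 and 7.26 CPM in Control. Control replicate 2 was the lowest of the 6 libraries and the other 2 Control libraries the highest, so the groups overlap (fold change 0.858, 95% interval 0.677 to 1.09, adjusted p = 0.54). The gene spans 84129672 to 84401651 on the plus strand of chromosome 11 (GRCm38). It overlaps Gm11437 on the other strand and Gm37391 on its own, so part of its count may belong to them. Its mitochondrial paralog Acacb, whose product curbs fatty acid oxidation, was listed at 0 in all libraries other than CUMS replicate 3 (0.157 CPM) and was not tested.

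Fasn, the gene of fatty acid synthase, was low. It measured 1.13, 1.02 and 1.40 CPM in CUMS, against 1.36, 1.78 and 0.919 CPM in Control, or 19.5 to 46 read-pair equivalents per library. The Control libraries spanned both the highest and the lowest value, and the log2 fold change was -0.20 ± 0.31 (SE; adjusted p = 0.83). At this depth the 95% interval of the fold change ran from 0.548 to 1.39, so a difference within those bounds was not excluded. Fasn lies on the minus strand of chromosome 11 at 120805846 to 120824547 (GRCm38).

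Elovl6, whose product lengthens palmitate to stearate, was among the scarcest of the 10, and its CUMS libraries were the most uneven, with a coefficient of variation of 88.4% (34.4% in Control). It measured 0.143, 0.144 and 0.592 CPM in CUMS, against 0.701, 0.416 and 0.389 CPM in Control. Elovl6 had 12 and 16 estimated counts in CUMS replicates 1 and 2, or 3 to 4 read-pair equivalents. In CUMS replicate 3 it had 64 and lay within the Control range. Its log2 fold change was -0.77 ± 0.66 (SE; adjusted p = 0.64), and its size turned on single libraries. It was -1.79 without CUMS replicate 3 (adjusted p = 0.29), and -0.44, -0.43 and -0.45 without CUMS replicate 1, CUMS replicate 2 and Control replicate 1 (adjusted p = 0.83, 0.88 and 0.88). On chromosome 3, plus strand, Elovl6 spans 129532355 to 129638495 (GRCm38). There it overlaps Gm35986 on the other strand and Gm43072 on its own, so part of its count may belong to them.

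Scd1 and Scd2 encode stearoyl-CoA desaturases, which place the double bond that turns stearate into oleate. They are neighbours on chromosome 19, Scd2 at 44293674 to 44306864 on the plus strand and Scd1 at 44394455 to 44407879 on the minus strand (GRCm38). Scd1 measured 2.84, 3.58 and 4.94 CPM in CUMS, against 2.73, 3.39 and 3.43 CPM in Control. CUMS replicate 3 was the highest library and CUMS replicate 2 the next, the groups overlap, and the log2 fold change of 0.25 ± 0.21 (SE; adjusted p = 0.64) did not pass the test. It was 0.02 without CUMS replicate 3 (adjusted p = 0.99), 0.15 without Control replicate 1 (0.86) and 0.42 without CUMS replicate 1 (0.34). Scd2 measured 6.83, 6.59 and 6.34 CPM in CUMS, against 6.97, 6.34 and 7.54 CPM in Control, a fold change of 0.948 with a 95% interval of 0.784 to 1.14 (adjusted p = 0.83). The paralogs share sequence, so some reads may be split between them. Scd3 and Scd4, the further members of the family, were listed between 0 and 0.176 CPM and were not tested.

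Elovl5 and Fads1 act on polyunsaturated chains: Elovl5 encodes their elongase, and Fads1 the desaturase that completes arachidonate. Elovl5 measured 16.5, 14.6 and 14.1 CPM in CUMS, against 18.6, 15.6 and 15.9 CPM in Control. Replicate 1 was the highest library of each group, and the fold change was 0.902 with a 95% interval of 0.772 to 1.05 (adjusted p = 0.53). Fads1 measured 0.380, 0.737 and 0.351 CPM in CUMS, against 0.280, 0.542 and 0.848 CPM in Control. The 6 values interleave, and 5.5 to 20.5 read-pair equivalents per library left an interval of 0.396 to 1.96 for its fold change (adjusted p = 0.92). Both are plus-strand genes, Elovl5 spanning 77917364 to 77984519 of chromosome 9 and Fads1 10182888 to 10196877 of chromosome 19 (GRCm38). Fads2, the desaturase that acts before Elovl5, was listed at 0 in 3 libraries and at no more than 0.166 CPM in the others, and was not tested.

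**Figure D1:**
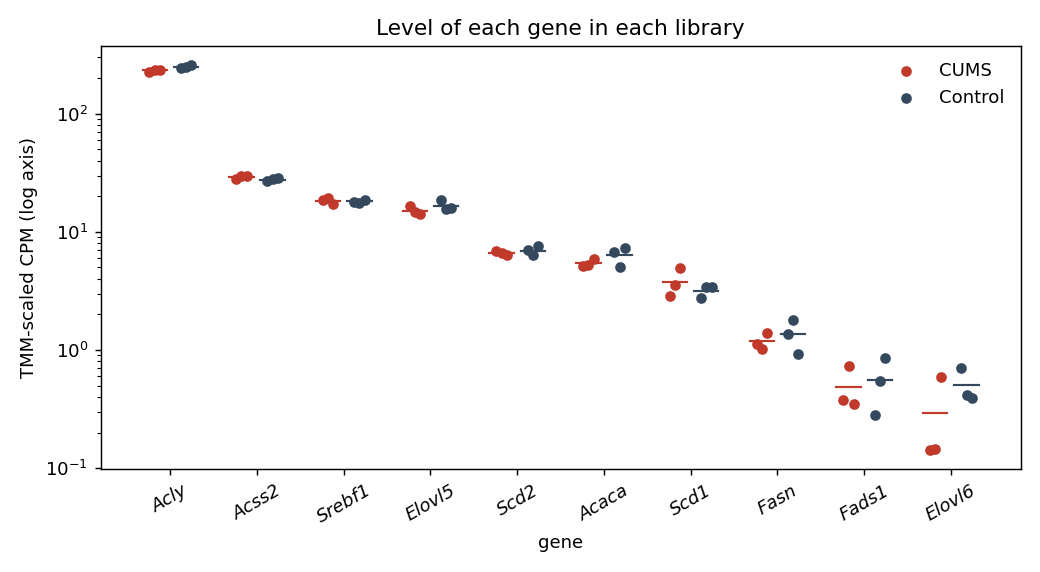
TMM-scaled CPM (log axis) of the 10 genes, each point 1 library and each short line the mean of 3, with CUMS to the left of Control for each gene. Acly stands between 228 and 258 CPM, Fads1 and Elovl6 lie below 1 CPM, and the groups overlap for all genes other than Acly.

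The stretches before the starts of Fasn (chr11:120824548-120824727, minus strand) and Elovl5 (chr9:77917185-77917364, plus strand) are given in the same way. Fasn is the synthase itself, and Elovl5 the 1 gene with an E box match among the 7 that could be searched.
Fasn: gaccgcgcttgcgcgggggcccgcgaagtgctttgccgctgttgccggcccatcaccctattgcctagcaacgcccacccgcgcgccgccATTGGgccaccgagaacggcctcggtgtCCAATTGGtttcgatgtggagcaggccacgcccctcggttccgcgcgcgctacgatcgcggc
Elovl5: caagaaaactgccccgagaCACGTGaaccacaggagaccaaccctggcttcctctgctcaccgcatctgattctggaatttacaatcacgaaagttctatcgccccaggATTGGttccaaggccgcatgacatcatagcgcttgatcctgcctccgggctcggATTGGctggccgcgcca
The Fasn stretch holds 3 matches to CCAAT, 2 of which overlap each other on opposite strands. RefSeq windows of 250 bases before to 50 after a start were matched by symbol for 7 of the 10 genes (Scd1, Scd2 and Fads1 were not), 9 windows in all. CCAAT was in 6 of these 9 windows (37.4% of all 32851 windows hold it), GGGCGG in 4 (35.7%), CACGTG in 1 (7.15%) and TCACNCCAC in 0 (1.24%). Matches of letters are descriptions of sequence, not of binding.

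Per kilobase of annotated exon, the levels of the 10 genes spanned from 45.8 CPM per kb for Acly to 0.0618 CPM per kb for Elovl6, as means of 6 libraries. Acly stood 10.1-fold above the next gene and made up 77.7% of the sum over the 10. Elovl5 (4.51 CPM per kb), Srebf1 (3.23), Acss2 (2.80), Scd2 (1.24), Scd1 (0.713) and Acaca (0.346) followed, each with a range over the 6 libraries clear of that of its neighbours. Fasn (0.116), Fads1 (0.109) and Elovl6 (0.0618) had overlapping ranges and could not be ordered. With the longest protein-coding transcript as the length, chosen after seeing the data, Acss2 had 9.71 CPM per kb and came second, since its annotated exons total 10.16 kb but its longest coding transcript 2.93 kb. Acly then stood 5.63-fold above it and made up 70.7% of the sum. Srebf2 stood 6.16-fold above Srebf1 per kilobase of exon.

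Precision followed depth closely. The 95% interval of the log2 fold change reached 0.09 to either side of the estimate for Acly at 5728.7 read-pair equivalents per library, against 0.17 for Srebf1 at 432.2, 0.67 for Fasn at 30.4 and 1.44 for Elovl6 at 9.3. For 6 genes (Srebf1, Acly, Acss2, Acaca, Scd2 and Elovl5) the interval lay within a 1.5-fold change in either direction. For Scd1 it reached a 1.65-fold rise, and for Fasn, Fads1 and Elovl6 it reached past 1.5-fold downward. The sum over all 10 genes was 308 to 316 CPM in CUMS and 327 to 341 CPM in Control. Without Acly it was 79.7 to 81.1 CPM in CUMS and 78.7 to 83.3 CPM in Control, so the gap between the groups in the sum lay in Acly.

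**Figure D2:**
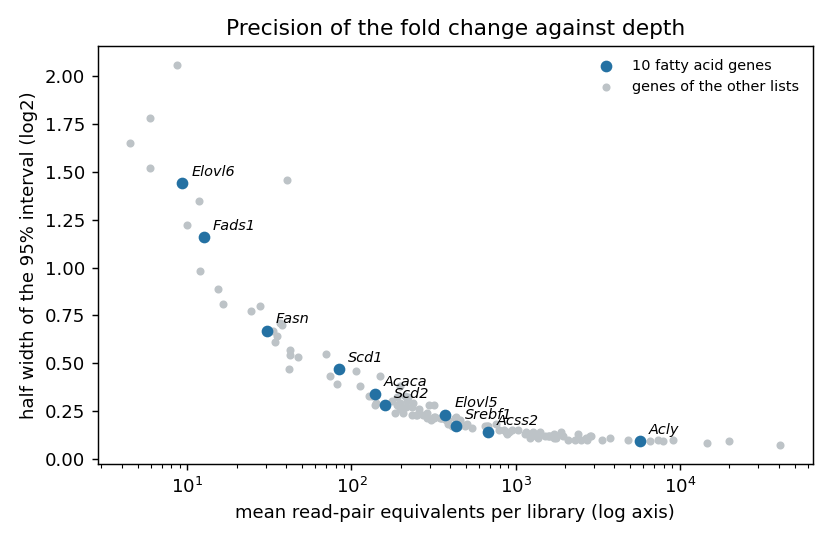
Distance from the log2 fold change to the end of its 95% interval (y axis) against mean read-pair equivalents per library (x axis, log scale), with the 10 genes in blue and genes of the other lists in grey. It is 1.44 for Elovl6 at 9.3 read-pair equivalents and 0.09 for Acly at 5728.7.

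Among 11 tested regulators of lipid synthesis, 1 fell and 0 rose, with a median log2 fold change of 0.01. Of all genes tested, 2.14% fell and 2.36% rose. The gene that fell was Srebf2, at 124, 129 and 121 CPM in CUMS, against 159, 156 and 168 CPM in Control. The groups were far apart relative to their spread (log2 fold change -0.37 ± 0.047, SE; adjusted p = 0.0011). Scap, which escorts both SREBPs out of the endoplasmic reticulum, averaged 16 ± 0.867 CPM in CUMS and 15.4 ± 0.687 CPM in Control (adjusted p = 0.83). Insig1, which retains them there and is itself a target of SREBPs, averaged 9.23 ± 0.538 CPM in CUMS and 12.7 ± 1.74 CPM in Control. Its log2 fold change of -0.46 ± 0.12 (SE) just missed the threshold (adjusted p = 0.054) and passed it with DESeq2 (0.0065), with limma-voom (0.040) and in 4 of the other 12 settings tried. The 95% interval of Srebf1 reached no lower than -0.16 on the log2 scale, whereas that of Srebf2 ran from -0.47 to -0.27.

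Next came the genes that feed the pathway with carbon and NADPH. Of 12 tested, 1 fell with edgeR (Me2, a mitochondrial malic enzyme) and 0 rose, with a median of -0.02. Over all genes tested, edgeR called 2.14% lower and 2.36% higher. DESeq2 and limma-voom each called 3 falls, Me2, G6pdx and Idh1, and the count ran from 0 to 3 over the settings tried. Me2 averaged 44.0 ± 2.54 CPM in CUMS and 53.0 ± 1.23 CPM in Control (log2 fold change -0.27 ± 0.059, SE; adjusted p = 0.024). The call was lost with no filter on low counts, and on leaving out CUMS replicate 1, CUMS replicate 2 or any of the 3 Control libraries (adjusted p up to 0.11). G6pdx and Idh1, which make cytosolic NADPH, had log2 fold changes of -0.15 ± 0.041 and -0.20 ± 0.055 with edgeR (adjusted p = 0.073 and 0.071). Me1, the cytosolic malic enzyme of lipogenic tissues, was listed at 0 in all 6 libraries. Of 7 other tested genes of acyl chain synthesis, among them the mitochondrial pathway, 0 passed with edgeR, DESeq2 or limma-voom. DESeq2 gave 6 of them an adjusted p. The median was 0.02, and 2 had an unadjusted p under 0.05, against 16.9% of all genes tested with edgeR.

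Among the remaining elongation enzymes 2 passed with edgeR, in opposite directions, and among the remaining desaturation enzymes 0 passed. Of 8 tested elongation genes, Hacd4, a dehydratase of the elongation cycle, rose and Hsd17b12, its ketoreductase, fell (median 0.04). Over all genes tested, 2.36% rose and 2.14% fell. Hacd4 averaged 299 ± 4.76 CPM in CUMS and 250 ± 8.98 CPM in Control (log2 fold change 0.26 ± 0.041, SE; adjusted p = 0.0044). Hsd17b12 averaged 4.15 ± 0.457 CPM in CUMS and 6.80 ± 0.877 CPM in Control (-0.71 ± 0.15; adjusted p = 0.021). That call ended without CUMS replicate 2, CUMS replicate 3, Control replicate 1 or Control replicate 2 (adjusted p up to 0.10). Of 6 tested desaturation genes, 0 passed with the 3 tools (DESeq2 gave 5 an adjusted p), and 2 had an unadjusted p under 0.05 (median -0.03). The share with such a p over all genes tested was 16.9% with edgeR.

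Activation and storage of fatty acids, and their oxidation, each included 1 or 2 calls with edgeR, which called 4.50% of all genes tested. Of 19 tested genes of acyl-CoA synthesis and glycerolipid assembly, 1 rose and 1 fell with edgeR (median -0.01). DESeq2 called 2 rises and 3 falls, limma-voom 1 of each, and the count ran from 1 to 5 over the settings tried. Acsl1, an acyl-CoA synthetase, averaged 351 ± 2.60 CPM in CUMS and 312 ± 11.2 CPM in Control (log2 fold change 0.17 ± 0.040, SE; adjusted p = 0.030). Its call was lost with no filter on low counts, and on leaving out Control replicate 1, Control replicate 3 or any of the 3 CUMS libraries (adjusted p up to 0.13). Dgat1, which closes triglyceride synthesis, averaged 571 ± 12.4 CPM in CUMS and 675 ± 12.7 CPM in Control (-0.24 ± 0.036; adjusted p = 0.0033). Of 18 genes of mitochondrial fatty acid oxidation, 1 rose and 0 fell (median -0.01), which is close to the share called over all genes. The one that rose was Cpt1a, the gate of that pathway, at 117 ± 3.85 CPM in CUMS and 93.5 ± 2.36 CPM in Control (0.32 ± 0.046; adjusted p = 0.0025).

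The sterol genes, whose transcription answers to the same family of factors, mostly moved one way. Of 21 tested, 14 fell and 0 rose, 20 had a negative log2 fold change, and the groups did not overlap for 18. Among all 15778 genes tested, 2.14% fell, 2.36% rose, 51.6% were negative and the groups did not overlap for 22.9%. Hmgcs1, which makes HMG-CoA for the mevalonate pathway, measured 33.2, 33.9 and 31.7 CPM in CUMS, against 52.6, 53.2 and 61.4 CPM in Control (log2 fold change -0.76 ± 0.070, SE; adjusted p = 0.00011). All 3 CUMS libraries lay below all 3 Control libraries. Cyp51, a demethylase of lanosterol, fell by 1.19 ± 0.11 on the log2 scale (SE; adjusted p = 8.8e-05). Fdps, Idi1, Fdft1 and Msmo1, further enzymes of the route, fell by 1.29, 0.85, 0.93 and 0.44. The 95% intervals of 7 of the 10 fatty acid genes lay wholly above the median of these sterol genes, and those of Fasn, Elovl6 and Fads1 included it. The difference between the lists as such was not tested.

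**Figure D3:**
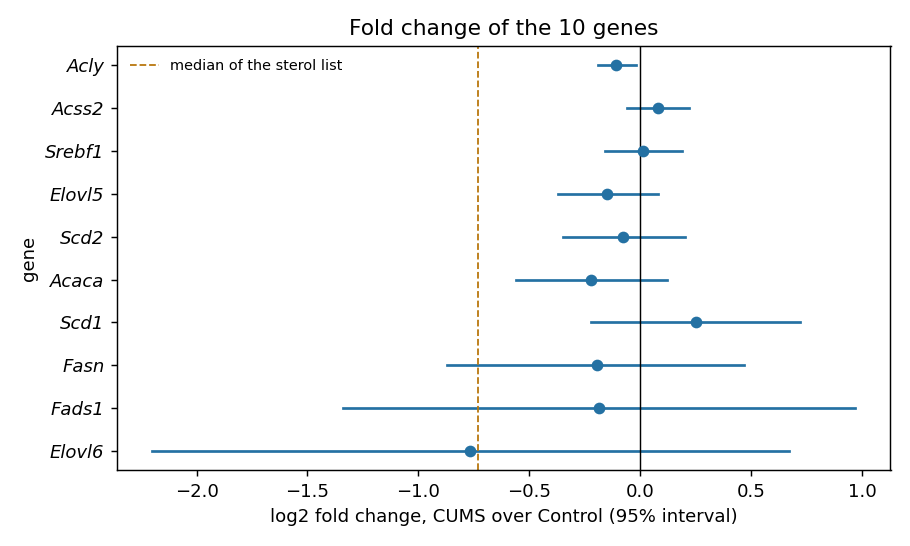
Log2 fold change, CUMS over Control, of the 10 genes, with points for the estimates and bars for their 95% intervals, and a dashed line at the median of the sterol list (-0.73). The bars of Fasn, Fads1 and Elovl6 cross the dashed line, and the bar of Acly is the 1 that does not reach 0.

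**Figure D4:**
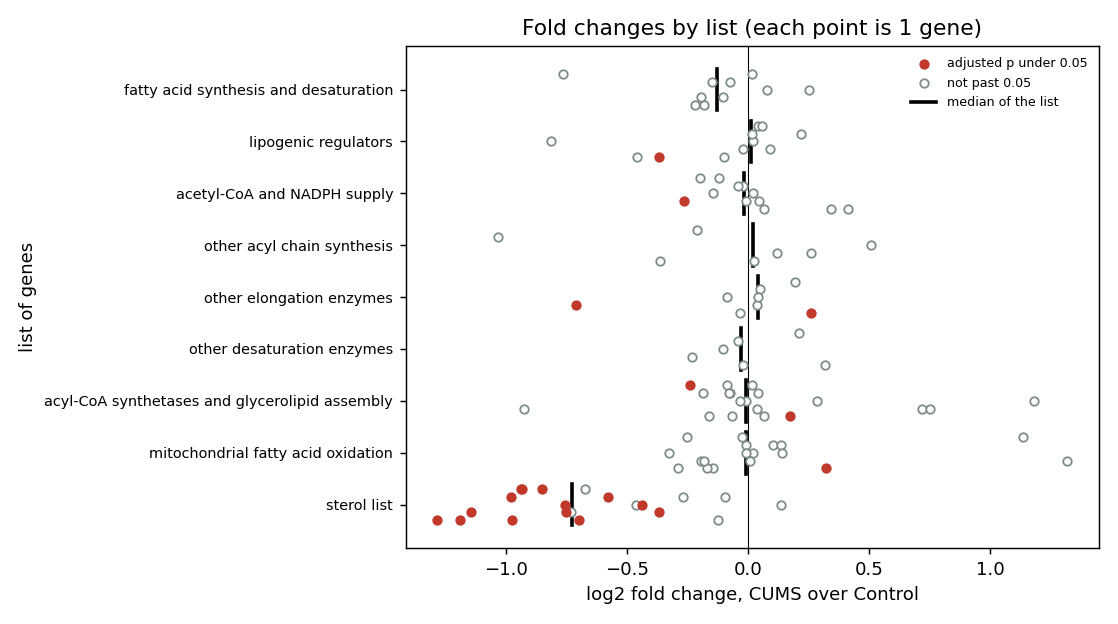
Log2 fold change of each tested gene by list, filled where the adjusted p was under 0.05, with a black bar at the list's median. The sterol list holds 14 filled points, all to the left of 0, and the fatty acid synthesis and desaturation list holds 0.

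The stretch before Hmgcs1, the synthase at the start of the mevalonate pathway, is printed for comparison (chr13:119690171-119690350, plus strand). Among the 14 sterol genes that could be searched, it was the 1 with a match to the sterol regulatory element core.
Hmgcs1: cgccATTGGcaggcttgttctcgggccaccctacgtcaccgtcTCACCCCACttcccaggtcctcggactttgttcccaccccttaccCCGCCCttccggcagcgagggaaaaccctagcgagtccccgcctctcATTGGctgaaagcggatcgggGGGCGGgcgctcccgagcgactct
Of the 22 sterol genes, 14 had RefSeq windows, 17 in all. TCACNCCAC was in 1 of these windows (1.24% of all 32851 windows hold it), CACGTG in 3 (7.15%), CCAAT in 14 (37.4%) and GGGCGG in 14 (35.7%).

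Markers of other cell types also moved with the groups. With edgeR, 7 of 12 erythroid markers rose and 0 fell, their summed level being 2530 to 3010 CPM in CUMS and 1310 to 1880 CPM in Control. Of 21 cell division genes 14 fell and 0 rose, with summed levels of 466 to 487 CPM in CUMS and 630 to 664 CPM in Control. Among all genes tested, 2.36% rose and 2.14% fell. Monocyte and macrophage (2 of 8), eosinophil (2 of 6) and granulocyte progenitor markers (2 of 8) also included rises and 0 falls. Of 5 plasma cell markers tested, Xbp1 fell and 0 rose. The median log2 fold change of these 5 was 0.30, with 3 of them positive. Of the B cell (8 tested), T and NK cell (3), basophil and mast cell (5) and megakaryocyte markers (3), 0 passed with edgeR. An unadjusted p under 0.05 was found for 1, 0, 2 and 0 of them, and for 16.9% of all genes tested. DESeq2 called 1 B cell marker and 1 eosinophil marker in place of 2, and limma-voom called 1 basophil and mast cell marker. The part of these cells in the levels of the fatty acid genes was not tested.

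Adipocytes, which are rich in the transcripts of this pathway, left little trace. Of 9 adipocyte markers, Plin1, Cidec, Lep and Cfd were listed at 0 in all 6 libraries and Adipoq at 0 in 4. Retn, Fabp4 and Pparg averaged 1.96, 0.171 and 0.104 CPM in CUMS, and 2.44, 0.0695 and 0.0942 CPM in Control. The summed level was 61.0 to 63.1 CPM in CUMS and 61.2 to 67.4 CPM in Control, nearly all of it Lipe, a lipase gene that other cells also express (59.7 ± 0.750 CPM in CUMS and 61.1 ± 2.75 CPM in Control). Of the 4 markers tested 0 passed with edgeR, DESeq2 (which gave 2 an adjusted p) or limma-voom, and 0 had an unadjusted p under 0.05. With edgeR 16.9% of all genes tested had such a p.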

How the data were processed

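RNA-seq libraries of bone marrow neutrophils (3 CUMS, 3 Control) gave paired reads (Illumina NovaSeq), per the labels' protocols. The submitters' processing notes name the build mm10 and, with no role or order, DESeq2 2.11.40.6, featureCounts 1.6.4, HISAT2 2.1, cutadapt 1.16.5 and bcl2fastq 2.19. The deposited values are whole numbers per gene and were taken as estimated counts, since multiples of 4 were in excess over adjacent values: 1.89-fold for 4, 1.66-fold for 8, 1.41-fold for 12 and 1.38-fold for 16. A read pair was therefore taken to be worth about 4, and read-pair equivalents are the values divided by 4. The adjacent values are all odd, so an excess of all even values would look alike. The worth of 4 is thus an assumption, and true numbers of read pairs may differ from the equivalents. Of the 47561 rows, 1588 carry assembled-transcript identifiers (STRG). The tool that made them is not given in the sources used here.

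Deposited estimated counts, already whole, entered edgeR 4.0.16 (R 4.3.3) with filterByExpr defaults, TMM scaling, the quasi-likelihood F test of CUMS over Control with no covariate, and Benjamini-Hochberg adjustment over all 15778 genes tested at 0.05. Samples were not paired by replicate number in this fit. Same-numbered libraries correlated at 0.01, 0.00 and -0.03 in their deviations from the group means, which cannot exclude a shared batch. SE values derive from the F statistic, and intervals are 95%. Counts and intervals do not cover errors other than sampling and replicate spread. The test was checked on simulated data with larger fold changes than those estimated for the 10 genes. That check does not show how often changes of their size would be missed. Of several rows with 1 symbol, that with the largest summed count was used, which touched 0 of the 10 genes. Coordinates and exon lengths come from GENCODE M21 (GRCm38), matched by symbol, and promoter windows from RefSeq (GRCm38.p6). DESeq2 1.42.0 and limma 3.58.1 (voom) were alternatives, as were other scalings and filters, values divided by 4, a replicate block and leaving out each library.

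The 10 genes and all lists were chosen with earlier results of these data known. The lists are the 8 pathway lists and the cell division list described in the report, and markers of 11 cell types. Genes named are the 10, each list gene past the threshold (at most 8 per list, those with the lowest adjusted p), Srebf2, Scap, Insig1, Fads2, Acacb and Me1, and up to 3 markers per cell type with the highest mean CPM. Gene length by the longest protein-coding transcript was added after seeing the data. Cfd, Plin1, Cidec, Lep, Adipoq, Pparg, Ly6g, Camp, Scd3, Scd4, G6pdx and Idh1 were named after their values were seen. Hsd17b8 was not analysed here. Some genes the rule selects are not reported here.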

Additional observations from a re-analysis of the deposited data

How the results depend on the processing

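For the 10 genes, 14 alternatives were run, and 0 of the 10 passed in any of them (adjusted p 0.11 or higher where one was given). DESeq2 gave no adjusted p to Fasn, Elovl6 and Fads1. Elovl6 and Fads1 were left out by the filter at a mean of 1 CPM. Signs of uncalled log2 fold changes turned when a library was left out: Srebf1 was -0.02 without CUMS replicate 2 (up to 0.06 over the others), Fasn ran from -0.41 to 0.06 (without Control replicate 2), and Fads1 from -0.60 to 0.25, being 0.01 without CUMS replicate 3 and 0.25 without Control replicate 3. The cause was not tested. The median of the 10 ran from -0.13 to -0.05. The number of genes called among all genes was 710, and it was 462 with no filter on low counts, 1239 with DESeq2 and 305 to 697 when a library was left out, where fewer samples were tested. With the replicate block 931 genes were called and 0 of the 10. The sterol list had 11 to 14 calls, and Srebf2, Dgat1, Cpt1a and Hacd4 passed in all 14 alternatives. Depth limits Elovl6, Fads1 and Fasn most, at 9.3, 12.6 and 30.4 read-pair equivalents per library.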
